A study of Mus musculus with 50 samples.

Results

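The 10 genes described here encode the main chaperones of the heat shock response, and were chosen by symbol: Hspa1a, Hspa1b, Hspa8, Hsp90aa1, Hsp90ab1, Dnajb1, Hspb1, Hsph1, Hspe1 and Hspd1. All 10 were rows of both deposited count tables, out of 33924 gene rows. The tables held 50 libraries of mouse marrow cells in 16 groups. The first table held LSK and GMP from WT mice at 4 weeks and from mice labelled Flt3, which carry a mutant Flt3 allele, at 2, 4, 6 and 8 weeks, with 3 libraries in each of these 10 groups. LSK are the marrow fraction without lineage markers and with Sca-1 and Kit, in which the stem cells lie, and GMP are the progenitors of granulocytes and monocytes. The second table held LSK and GMP of mice labelled Npm1 Flt3 (4 libraries each) and Dnmt3a Flt3 (3 each), with no time point in the labels. It also held lineage-negative stem and progenitor cells (Lin- HSPCs) of Npm1 Flt3 mice given vehicle or tamoxifen (TAM) for 7 days, with TAM meant to delete the mutant Flt3 (3 each). Per the labels, mutations were switched on with Cre, Dre or Flp, and mice were taken at the time point or when symptomatic. The promoter that drives each recombinase and the ages of the mice are not given in the sources used here.

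HSP70 proteins (Hspa1a, Hspa1b and Hspa8) bind unfolded stretches of protein, HSP40 proteins such as Dnajb1 bring them their substrates, and Hsph1 recharges HSP70 with ATP. HSP90 (Hsp90aa1 and Hsp90ab1) holds kinases and receptors in an active fold, and mutant FLT3 is one of its known clients. Hspd1 and Hspe1 form the folding chamber of mitochondria and its lid, and Hspb1 is a small chaperone that holds unfolded protein without ATP. Hspa1a and Hspa1b are silent or low in most resting cells and are switched on when heat shock factor HSF1 binds heat shock elements, which are GAA units in alternating orientation. Hspa8, Hsp90ab1, Hspd1 and Hspe1 are made in all growing cells, and blood-forming progenitors, which divide and synthesise protein, express them throughout.

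Heat shock elements are shown first, because they are the sequence that the family's induction is known to depend on. RefSeq promoter windows of GRCm38.p6, the assembly that mm10 refers to, held 7 of the 10 genes; Hspa8, Hsp90aa1 and Hsp90ab1 are named only. A pair of facing units was searched as GAANNTTC or TTCNNGAA in the 250 bases before the start. Each of these reads the same on both strands, and overlapping matches were all kept. Of the 7 genes, 6 held a pair (all but Dnajb1), against 14.55% of 27025 genes in the table. A run of 3 alternating units, GAANNTTCNNGAA or TTCNNGAANNTTC, was found before Hspe1 and Hspd1, against 0.514% of all genes. A match describes letters and is no evidence of binding. In the stretches below the capitals mark the matched units.
Hspa1a: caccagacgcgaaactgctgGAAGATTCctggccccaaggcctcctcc
Hspa1b: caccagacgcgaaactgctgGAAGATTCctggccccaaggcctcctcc
Hspb1: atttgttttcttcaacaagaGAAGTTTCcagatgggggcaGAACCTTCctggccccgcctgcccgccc
Hsph1: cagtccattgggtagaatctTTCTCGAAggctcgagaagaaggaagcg
Hspe1: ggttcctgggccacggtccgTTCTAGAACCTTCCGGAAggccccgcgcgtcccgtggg

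The Hspa1a stretch lies on the minus strand at chr17:34972233-34972280 and the Hspa1b stretch on the minus strand at chr17:34959315-34959362, each 124 to 77 bases before its start. The Hspb1 stretch is on the plus strand at chr5:135887782-135887849, and that of Hsph1 on the minus strand at chr5:149636342-149636389. The Hspe1 stretch, on the plus strand at chr1:55088039-55088096, lies 109 to 52 bases before the start of Hspe1. Its reverse complement lies before one of the starts of Hspd1 too, so these neighbours, which are transcribed away from each other, share the run. All of these stretches lie outside annotated exons of the GENCODE transcripts used here. Hspa1a (chr17:34969359-34972156) and Hspa1b (chr17:34956429-34959238) are near copies. Their 250 upstream bases differed at 3 positions, and 58.8% of the 50-base windows of the Hspa1a transcript also occur in Hspa1b. The counting rule for reads that fit both is not given in the sources used here, so the split between these genes is uncertain, and where a call or correlation below passes for 1 of them alone it does not set them apart. RefSeq gives Hspd1 (chr1:55077833-55088243) and Hspe1 (chr1:55088148-55091317) ends that overlap, and whether strand was used in counting is not given either.

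Library totals lay between 306571 and 8249135 counts in the first table, apart from Flt3 8-week GMP replicate 2 with 1942 counts, which is left out of the values and the figures. The second table was deeper, with totals between 15053592 and 128057407. Levels are CPM, the counts of a gene scaled to a common library total. They are compared within a gene and within a table only, since the library kit used for each sample is not given. In WT mice the summed level of 8 GMP markers was 3133 to 4898 CPM in LSK and 45806 to 55916 CPM in GMP, which follows the sort labels. The labels do not say whether replicates are separate mice, so p-values measure the spread between libraries.

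Hspa1a and Hspa1b varied most among the 10 genes. In WT mice Hspa1a stood at 12.8, 8.96 and 16.8 CPM in GMP and at 2.81, 9.89 and 8.45 CPM in LSK. In Flt3 mice at 2 weeks it stood at 425, 585 and 638 CPM in GMP and at 219, 298 and 355 CPM in LSK. The mean ± SD (n = 3) was 7.05 ± 3.74 CPM in WT LSK, and 549 ± 111 and 291 ± 68.3 CPM in GMP and LSK at 2 weeks. Those 6 libraries at 2 weeks were above every other library of the first table. At 4 weeks Hspa1a was at 66.4, 31.3 and 31.5 CPM in GMP and at 68.1, 15.0 and 29.7 CPM in LSK. At 6 weeks the libraries of a group lay far apart, with 2.27, 58.9 and 9.54 CPM in GMP and 1.75, 41.1 and 0.784 CPM in LSK, the lowest of these resting on 1 read. At 8 weeks the values were 121 and 41.9 CPM in GMP and 89.3, 22.5 and 16.3 CPM in LSK. The order of the group means in GMP ran from 2 weeks down through 8, 4 and 6 weeks to WT, and the groups at 4, 6 and 8 weeks overlapped one another. Hspa1b followed the same pattern, with 550, 516 and 945 CPM in GMP at 2 weeks against 22.7 to 33.3 CPM in WT GMP.

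**Figure D1:**
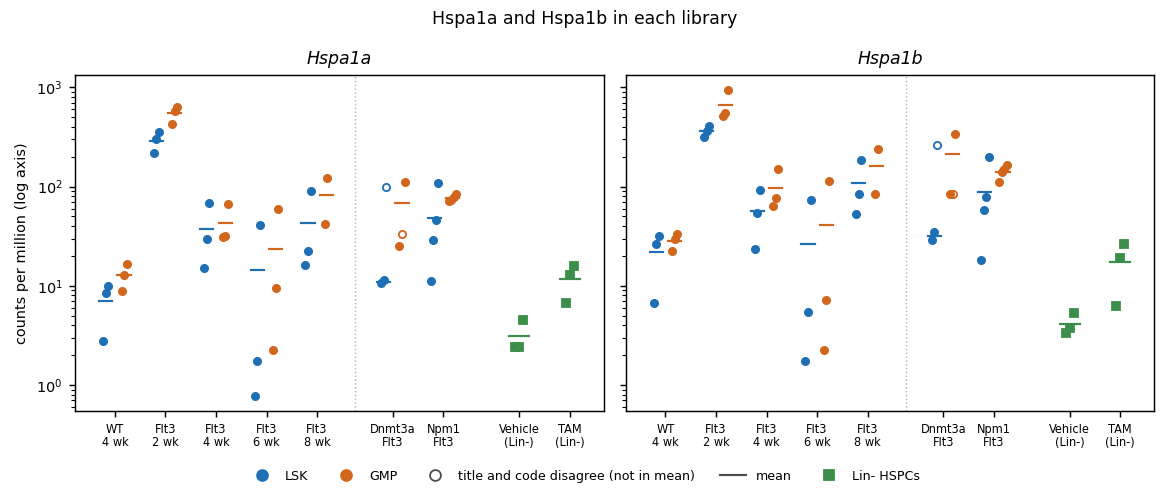
CPM of Hspa1a (left) and Hspa1b (right) on a log axis, each point 1 library and each bar a group mean; LSK are blue, GMP orange, Lin- HSPCs green, and open points are libraries whose title and sample code name different cell types. The dotted line parts the 2 tables, whose levels are not compared; the 2-week Flt3 libraries, at 219 to 638 CPM of Hspa1a, lie above all other libraries of the first table.

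The other members kept to narrower ranges. In the first table the constitutive HSP90 gene Hsp90ab1 was the most abundant by group mean, from 725 ± 57.0 CPM (SD, n = 3) in 2-week GMP to 1753 ± 413 in 8-week LSK, but these are counts not divided by gene length, so genes are not ranked by them. Hspa8 ran from 438 ± 56.4 CPM in 2-week GMP to 794 ± 179 in 4-week LSK, with 555 ± 43.1 in WT GMP and 621 ± 24.0 in WT LSK. Its group means were higher at 4 and 8 weeks than at 6 in both cell types, and 6-week libraries overlapped with 8-week ones in LSK alone. Hsp90aa1, the inducible HSP90 gene, scattered within groups, for example from 199 to 739 CPM in 8-week LSK and from 125 to 387 CPM in WT GMP. Dnajb1 ran from 57.9 ± 8.47 CPM in WT GMP to 126 ± 39.4 in 4-week LSK. Hspe1 and Hspd1, whose products work as 1 complex, had a ratio of counts between 1.13 and 2.95 in every library of the first table and between 0.103 and 0.69 in every library of the second. These ranges come from tables that are not compared, for the reason given above.

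The 2-week Flt3 libraries were set against those at 4, 6 and 8 weeks, a contrast over time within Flt3 mice. The inducible HSP70 pair was higher at 2 weeks in both cell types. Hspa1a was higher by 4.12 ± 0.48 (log2 fold ± SE, edgeR quasi-likelihood test, adjusted p = 7.38e-05) in GMP and by 3.62 ± 0.63 (adjusted p = 0.0027) in LSK, and Hspa1b by 3.41 ± 0.60 (0.00153) and 3.04 ± 0.65 (0.00903). Each fit held 3 libraries at 2 weeks and 9 later ones, the near-empty one included in GMP. It also held the 3 WT libraries, which were not contrasted. Folds use TMM scaling, which sets library totals by the bulk of genes. For both genes the 2-week libraries did not overlap the later ones in either cell type.

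Several other chaperones went the other way at 2 weeks. Hspd1, the mitochondrial chamber, stood at 106, 94.5 and 108 CPM in 2-week GMP and between 187 and 254 CPM in the later GMP libraries. In LSK it stood at 117, 162 and 102 CPM at 2 weeks and at 215 CPM or more later. It was lower by 0.68 ± 0.15 on the log2 scale in GMP (edgeR adjusted p = 0.000428) and by 0.68 ± 0.13 in LSK (0.000484). Hsph1, the HSP70 exchange factor, stood at 26.4, 28.8 and 38.9 CPM in 2-week GMP and at 23.0, 34.7 and 34.8 CPM in 2-week LSK. Later libraries held 45.3 CPM or more of it in GMP and 48.4 CPM or more in LSK, so the groups did not overlap. Its log2 fold was -0.88 ± 0.21 in GMP (edgeR adjusted p = 0.00127) and -1.05 ± 0.25 in LSK (0.00454). Hsp90ab1, the constitutive HSP90, stood at 750, 660 and 766 CPM in 2-week GMP and 872, 875 and 951 CPM in 2-week LSK. Every later library was above these, from 1118 CPM upward in GMP and from 1354 CPM in LSK. Its log2 fold was -0.48 ± 0.17 in GMP (edgeR adjusted p = 0.0319) and -0.48 ± 0.12 in LSK (0.00473). Hspe1, the lid, stood at 193, 146 and 216 CPM in 2-week GMP against 286 CPM or more later, a log2 fold of -0.45 ± 0.15 (edgeR adjusted p = 0.0234). In LSK its log2 fold was -0.02 ± 0.10 (0.914).

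Counted over the family, 6 of 9 tested members passed in GMP (2 higher, 4 lower), where 24.4% of all 9122 genes tested did (15.8% higher, 8.63% lower). In LSK 5 of 9 passed (2 higher, 3 lower), where 17.1% of 9892 genes did (11% higher, 6.07% lower). Hspa8, Dnajb1 and Hsp90aa1 passed in neither. Hspa8 had log2 folds of -0.21 ± 0.15 in GMP and -0.25 ± 0.14 in LSK, Dnajb1 0.18 ± 0.16 and 0.10 ± 0.19, and Hsp90aa1 0.07 ± 0.42 and -0.10 ± 0.46. The median log2 fold of the 9 members was -0.21 in GMP and -0.10 in LSK, beside 0.02 and -0.01 over all genes. Scaling by library totals alone moved the median of all genes by more than 0.1, to -0.34 in GMP and -0.30 in LSK, and the percentage of called genes that were higher from 64.6% to 22.9% in GMP and from 64.6% to 22.8% in LSK. That scaling added Hspa8 to the lower genes (-0.58 in GMP, adjusted p = 0.000354, and -0.54 in LSK, 0.00515) and Hspe1 to those in LSK (-0.31, 0.0333), and turned the direction of no called member. The LSK calls held in all 12 fits that left out 1 library. In GMP the Hsp90ab1 call was lost in 7 such fits, among them each that left out a 2-week library, and the Hspe1 call was lost without 2-week replicate 1 or 2. The Hsp90ab1 call was also lost where only the contrasted groups were fitted (adjusted p = 0.0508). In DESeq2 with every library, the near-empty one included, Hspa1a and Hspa1b were called and the 4 lower calls in GMP were not (adjusted p = 0.0503 for Hspd1, 0.0585 for Hsph1, 0.0835 for Hsp90ab1 and 0.166 for Hspe1). DESeq2 without that library called the 4 lower genes and 1 of Hspa1a and Hspa1b. The other of the pair received no adjusted p in that fit, so whether it passes there is not known.

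**Figure D2:**
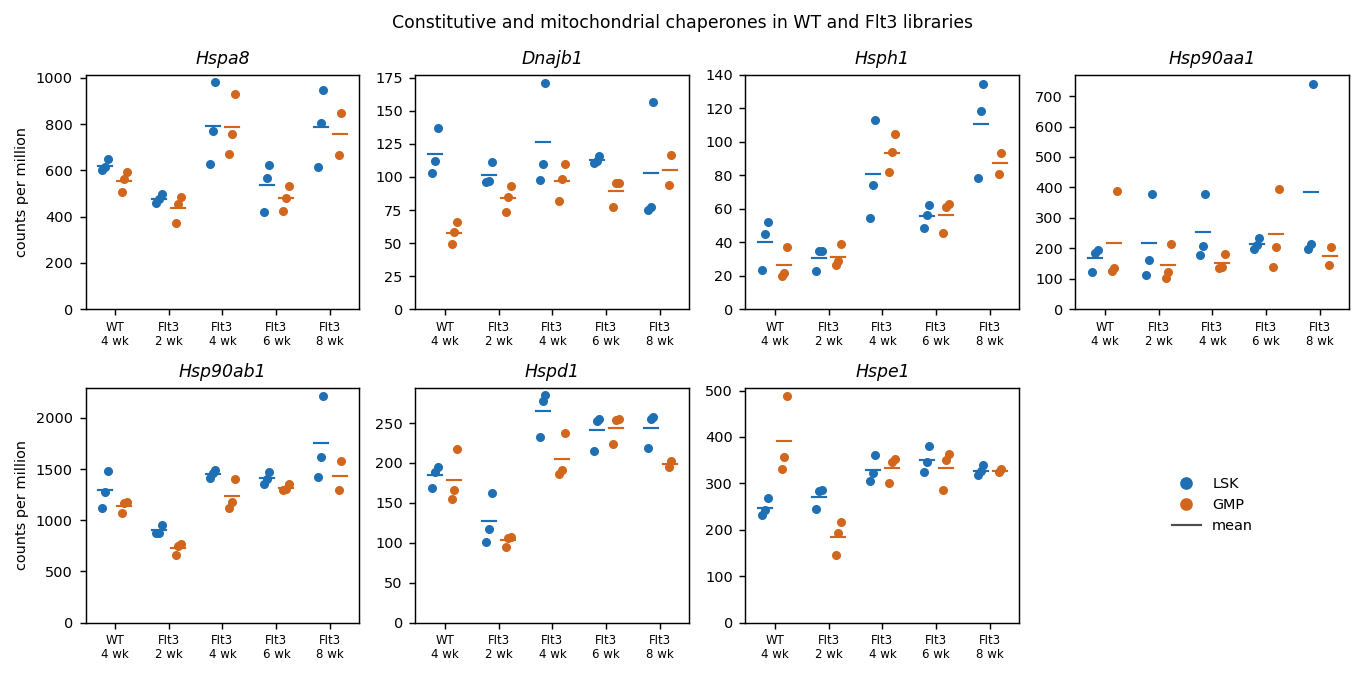
CPM of 7 members in the first table (linear axes from 0), each point 1 library, each bar a group mean, LSK blue and GMP orange. Hsp90ab1, Hspd1 and Hsph1 are lower at 2 weeks than at 4, 6 and 8 weeks in both cell types, and Hspe1 in GMP of WT mice lies at 331 to 489 CPM, above LSK of WT mice.

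Other RNAs moved with the 2-week libraries, and their part in the chaperone values was not tested. The immediate early genes, a set of quick-response genes such as Fos and Egr1, rose in 16 of 16 tested in GMP (median log2 fold 3.18) and in 15 of 16 in LSK (2.63). Their summed level over 18 genes was 4507 to 6724 CPM in 2-week GMP and 579 to 1381 CPM in later GMP. In LSK it was 3767 to 4732 CPM at 2 weeks and 637 to 1077 CPM later. All 6 basophil and mast cell markers were higher in 2-week GMP, with sums of 57179 to 70515 CPM against 324 to 1092 CPM later. In LSK 5 of 5 tested were higher (median log2 fold 2.42). All 6 dendritic cell markers were higher in both cell types, with sums of 17980 to 28094 CPM in GMP and 11158 to 20564 CPM in LSK at 2 weeks, against 797 to 3948 and 1583 to 11570 CPM later. Erythroid markers were higher in 4 of 4 tested in GMP and in 5 of 5 in LSK. Their sums were 157 to 243 CPM and 88.7 to 134 CPM at 2 weeks, against 1.11 to 20.6 and 2.67 to 35.9 CPM later. Neutrophil markers were higher in 2 of 2 tested in GMP and in 3 of 4 in LSK, with Ly6g at 0 in all of these groups. In bulk RNA a change in the share of a cell type and a change in RNA per cell cannot be told apart.

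Other chaperone genes at 2 weeks were divided. Of 16 genes for endoplasmic reticulum chaperones, 8 rose and 1 fell in GMP, and 7 of 15 tested rose in LSK. Creld2, a gene of the unfolded protein response of that compartment, rose by 0.97 ± 0.15 in GMP and 1.16 ± 0.17 in LSK. Of the heat-induced partners 2 rose and 2 fell of 12 tested in GMP, and 2 rose and 1 fell of 13 in LSK. In GMP Ubb, a ubiquitin gene, was among those that rose (0.60 ± 0.17), and Fkbp4 (-0.60 ± 0.17) and Chordc1 (-0.73 ± 0.21), partners of HSP90, fell. In LSK Ubb (0.46 ± 0.09) rose and Fkbp4 (-0.50 ± 0.11) fell, and Chordc1 had -0.53 ± 0.24 (adjusted p = 0.133). Of 17 tested co-chaperone and HSF genes 5 fell in GMP and none rose. They included Fkbp5 (-1.40 ± 0.18) and Ptges3 (-0.91 ± 0.15), which act with HSP90. In LSK 2 of 18 fell, Fkbp5 (-1.06 ± 0.18) and Ptges3 (-0.76 ± 0.13), and 1 rose, with a median of 0.03 against -0.21 in GMP. Hspa9, the mitochondrial HSP70, fell by 0.69 ± 0.15 in GMP and by 0.58 ± 0.11 in LSK, the 1 called gene of its list of 9 in each.

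WT LSK and WT GMP were compared to describe the family without the mutation. Dnajb1 and Hspe1 differed, in opposite directions. Dnajb1 stood at 112, 103 and 137 CPM in LSK and at 49.3, 66.2 and 58.3 CPM in GMP. It was higher in LSK by 0.68 ± 0.21 (edgeR adjusted p = 0.0115), and the groups did not overlap. Hspe1 stood at 268, 244 and 231 CPM in LSK and at 489, 357 and 331 CPM in GMP. With TMM scaling the ratio of LSK to GMP for Hspe1 was 0.499 (SE 0.16 on the log2 scale, edgeR adjusted p = 1.93e-06). That ratio is not one of the CPM given here, which use library totals. In CPM the groups again did not overlap. Dnajb1 and Hspe1 were 2 of 9 tested members, 1 higher and 1 lower, against 29.6% of 10287 genes called (16.1% higher, 13.5% lower). Among the others Hsp90ab1 had a log2 fold of -0.16 ± 0.17, Hspa8 -0.18 ± 0.17, Hspd1 -0.31 ± 0.16 and Hsph1 0.31 ± 0.27. Hspa1b, at -0.92 ± 1.10, passed with the block on the shared sample code (adjusted p = 0.0495) and not without it (0.571). The Dnajb1 call was lost without WT GMP replicate 1 or WT LSK replicate 3. With library totals alone the median of all genes moved from 0.12 to 0.46, and the percentage of called genes that were higher from 54.4% to 83.2%.

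The other chaperone lists differed from one another between WT LSK and GMP. Endoplasmic reticulum chaperones were lower in LSK in 12 of 16 and higher in 1, with Manf at -1.85 ± 0.16 and Sdf2l1 at -2.11 ± 0.19. Of 9 mitochondrial genes 3 were lower and 1 higher, and Grpel1, the exchange factor of mitochondrial HSP70, was lower by 0.90 ± 0.15. Of the chaperonin and prefoldin genes, which fold newly made protein in the cytosol, 4 of 13 were lower, Pfdn4 (-1.23 ± 0.24) among them. Of the heat-induced partners 2 of 13 were lower and 0 higher, and of the co-chaperone and HSF genes 1 of 18 was lower and 1 higher. Immediate early genes were higher in LSK in 8 of 17 and lower in none.

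Flt3 mice of all 4 time points were set against WT mice to describe the family under the mutation. WT libraries exist at 4 weeks only and carry another series of sample codes than the Flt3 libraries, so genotype and series cannot be told apart. In GMP Hsph1, Hspa1a and Dnajb1 were higher in Flt3 mice and Hspe1 was lower. Hsph1 stood at 19.7, 37.3 and 21.5 CPM in WT GMP, and its log2 fold was 1.08 ± 0.22 (edgeR adjusted p = 0.000152). Only 2-week libraries lay inside the WT range, and from 4 weeks on all were above it. Dnajb1, at 73.7 to 117 CPM in Flt3 GMP against 49.3 to 66.2 CPM in WT, was higher by 0.55 ± 0.17 (edgeR adjusted p = 0.00966). Hspe1 was lower by 0.58 ± 0.14 on the log2 scale (edgeR adjusted p = 0.00104). Hspa1a was higher by 2.51 ± 0.73 (edgeR adjusted p = 0.0284), and Hspa1b had 2.13 ± 0.81 (0.0808). Without the 2-week libraries the Hspa1a value was 1.50 and no longer passed (adjusted p = 0.245), while the other 3 calls held. Without WT GMP replicate 1 the calls of Hspa1a, Dnajb1 and Hspe1 were all lost, and that of Hspa1a was lost without each of the other 2 WT GMP libraries as well. DESeq2 with the near-empty library included did not call Dnajb1 or Hspe1. The 4 called members of 9 (3 higher, 1 lower) compare with 26.2% of 9122 genes (13.1% higher, 13.2% lower).

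In LSK Hsph1 and Hspe1 were higher in Flt3 mice. Hspe1 stood at 231 to 268 CPM in WT LSK and at 304 to 380 CPM in every Flt3 LSK library from 4 weeks on. Its log2 fold over all times was 0.47 ± 0.10 (edgeR adjusted p = 0.00123). Hsph1 stood at 51.9, 23.5 and 44.9 CPM in WT LSK, and its log2 fold was 0.69 ± 0.22 (edgeR adjusted p = 0.0359). That call was lost in 7 of 15 fits without 1 library and with library totals alone (adjusted p = 0.0819), and became 0.95 (0.00702) without the 2-week libraries. The 2 called members of 9, both higher, compare with 15% of 9892 genes (6.89% higher, 8.07% lower). Hspa1a had 3.15 ± 1.00 (adjusted p = 0.0622) and Hspd1 0.31 ± 0.12 (0.0826), which passed without the 2-week libraries (0.48, adjusted p = 0.00507).

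Hspe1 had opposite signs in the cell types, and the difference between them was tested in a fit of all 30 libraries. The Flt3 effect on Hspe1 was higher in LSK than in GMP by 1.06 ± 0.18 on the log2 scale (edgeR adjusted p = 4.92e-05), and the call held in all 38 alternatives. None of these blocked on the shared sample code, so LSK and GMP libraries of the same code were treated as separate. Hspe1 was the 1 called member of 9, where 12.4% of 10287 genes were called (6.59% higher, 5.83% lower). In WT mice the cell types did not overlap in Hspe1, while in Flt3 mice from 4 weeks on LSK libraries held 304 to 380 CPM and GMP libraries 286 to 363 CPM. Of the companions, 5 of 13 chaperonin and prefoldin genes and 6 of 16 endoplasmic reticulum genes had a higher Flt3 effect in LSK, with Pfdn4 at 1.23 ± 0.27 and Manf at 1.24 ± 0.18. So did Grpel1 (0.89 ± 0.17). Hspd1, the partner of Hspe1, had a difference of 0.45 ± 0.18 (adjusted p = 0.089). With library totals alone Dnajb1 was called as well (-0.76, adjusted p = 0.0232), and the percentage of called genes that were higher went from 53.1% to 18.3%, with the median of all genes at -0.10 and -0.35.

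**Figure D3:**
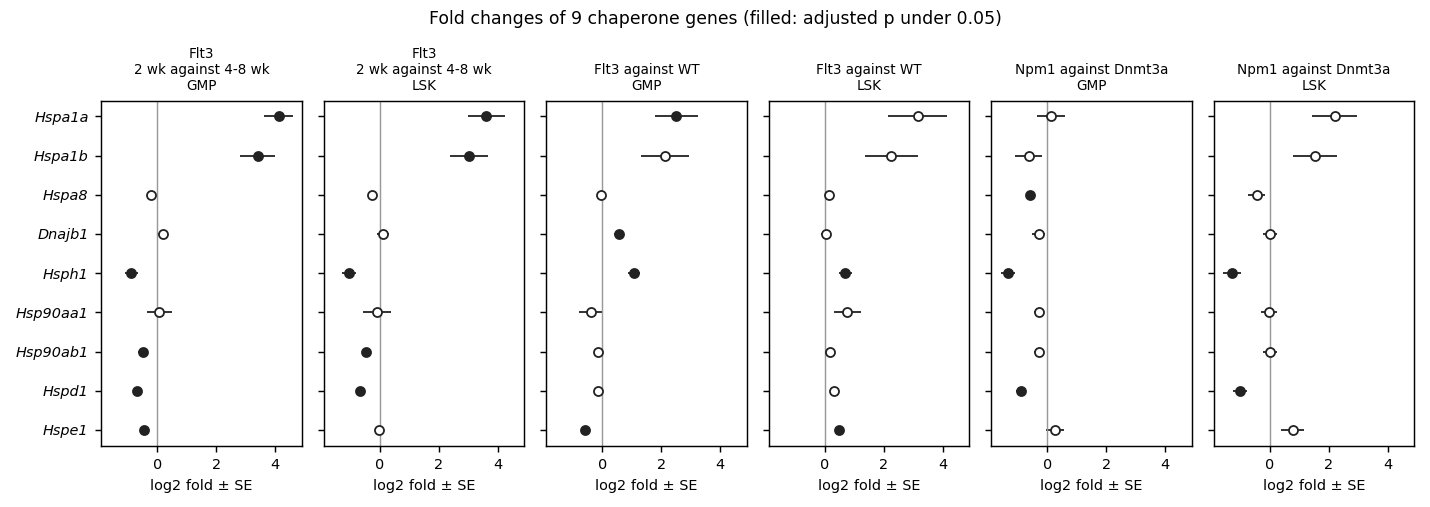
Log2 fold changes of 9 members (points) with SE (bars) in 6 comparisons of TMM-scaled counts, filled where the adjusted p was under 0.05. Hspa1a and Hspa1b lie right of 0 at 2 weeks while Hsph1, Hsp90ab1 and Hspd1 lie left of it, and Hspe1 lies left of 0 for Flt3 against WT in GMP and right of it in LSK.

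At 4 weeks alone, where the time points match, the comparison shares its WT libraries with the one above. Hsph1 was the 1 member of 9 called in GMP, where 15% of 9122 genes were (7.18% higher, 7.77% lower). It stood at 105, 93.9 and 82.0 CPM against 19.7, 37.3 and 21.5 CPM in WT, a log2 fold of 1.59 ± 0.26 (edgeR adjusted p = 1.44e-05) that held in all 14 alternatives. Hspa1a, at 31.3 to 66.4 CPM against 8.96 to 16.8 CPM, had 1.50 ± 0.94 (adjusted p = 0.339). Where only the contrasted groups were fitted, Hspa1a passed (adjusted p = 0.00396) and so did Hspa1b (1.52, 0.000216). In LSK 3 of 9 members were called, all higher, where 10.1% of 9892 genes were (4.54% higher, 5.6% lower): Hsph1 (0.93 ± 0.27, edgeR adjusted p = 0.0239), Hspd1 (0.56 ± 0.15, 0.012) and Hspe1 (0.45 ± 0.12, 0.0188). Hspd1 stood at 285, 278 and 233 CPM against 195 CPM or less in the 3 WT LSK libraries. All 3 LSK calls were lost without Flt3 4-week LSK replicate 1. Hspd1 was also lost without WT LSK replicate 1, Hspe1 and Hsph1 without replicate 2 or 3 of WT LSK, and Hsph1 without Flt3 4-week LSK replicate 2. Where only the contrasted groups were fitted in LSK, Hsph1 was lost (0.93, adjusted p = 0.0658) and Hspa1a passed (2.60, 0.0205). Scaled by library totals alone, Hspa8 (0.51, adjusted p = 0.0133) and Dnajb1 (0.74, 0.00829) were called in GMP, and the percentage of called genes that were higher there went from 48% to 74.6%. For all times together it went from 49.8% to 66.1% in GMP and from 46.1% to 30.1% in LSK.

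Beside the Flt3 values, 13 of 16 immediate early genes were higher in Flt3 GMP than in WT GMP (median 1.51), and 4 were higher and 1 lower of 16 in LSK. GMP markers were lower in 7 of 8 in Flt3 GMP, with sums of 17181 to 32635 CPM against 45806 to 55916 CPM in WT. All tested macrophage markers were lower in Flt3 cells, 5 of 5 in GMP and 7 of 7 in LSK, where WT LSK libraries held sums of 329 to 2090 CPM. Dendritic markers were higher in 6 of 6 in both, and Cd209a was at 0 in WT. LSK markers were lower in 7 of 8 and higher in 1 in Flt3 LSK, with sums of 712 to 1398 CPM against 1609 to 1774 CPM in WT LSK. Erythroid markers were lower in 4 of 4 in GMP and 5 of 5 in LSK, with sums of 470 to 673 CPM in WT LSK and 2.67 to 134 CPM in Flt3 LSK. Neutrophil markers were lower in 2 of 2 and 3 of 4, and basophil and mast cell markers in 4 of 6 (2 higher) and 4 of 5. Their part in the chaperone values was not tested. Fkbp5, an HSP90 co-chaperone gene, was higher in both cell types (0.65 ± 0.16 in GMP, 0.74 ± 0.17 in LSK). The mitochondrial list fell in 3 of 9 in GMP, Grpel1 (-0.59 ± 0.13) among them, and in 1 of 9 in LSK, Hscb (-1.02 ± 0.12), which loads iron-sulphur clusters.

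Change per week was fitted as a straight line across the Flt3 time points. No member was called in GMP in the main edgeR fit (12.2% of 8836 genes were, 2.9% higher and 9.27% lower), where 3 had an unadjusted p under 0.05. Without the near-empty library, DESeq2 called 2 members, both higher, and so did edgeR with median-ratio factors. In LSK 1 of 9 was called (2.7% of 9556 genes were, 0.722% higher and 1.98% lower). It was Hsp90ab1, which rose by 0.10 ± 0.02 a week on the log2 scale (edgeR adjusted p = 0.0321). It did not pass without the 2-week libraries (0.07, adjusted p = 0.65) or without any 1 of the 3 of them, nor without 8-week LSK replicate 2, the highest library at 2216 CPM. Hspa1a had -0.65 ± 0.20 a week in GMP (adjusted p = 0.0604) and 0.23 without the 2-week libraries. Hspd1, Hsp90ab1 and Hspe1 passed in GMP with library totals alone (0.17, 0.16 and 0.13 a week), under which the percentage of called genes that were higher went from 23.8% to 69% in GMP and from 26.7% to 63.3% in LSK.

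Sample codes pair 14 LSK libraries of the first table with a GMP library that carries the same code, which is read as 1 mouse. In all but 2 of the 14 pairs, Hspa1b deviated from its group mean in the same direction in both libraries. In the 6-week mice, for example, Hspa1b was at 1.75 and 2.27 CPM in LSK and GMP of one code, at 72.6 and 114 CPM in the next and at 5.49 and 7.16 CPM in the third. Over the 14 pairs the deviations from group means on the log2 scale had a Pearson r of 0.93 and a Spearman rho of 0.908. Both had p = 0.000386 in an exact two-sided permutation of pairs within groups, the smallest it can give, and 0.00347 adjusted over 9 members. Without the 2 pairs farthest from the median, r was 0.775. Hspa1a had r = 0.82 and rho = 0.741 (both exact permutation p = 0.0629, adjusted 0.189), with 0.737 without the 2 farthest pairs. Hspa8 had r = 0.715 (exact permutation p = 0.0583, adjusted 0.189) and rho = 0.807 (0.0197, adjusted 0.0885), with r = 0.591 without the 2 farthest. These are deviations, so differences between the groups do not enter. For the other 6 members r lay between -0.241 and 0.473, with adjusted exact permutation p of 0.548 or more. Libraries of 1 mouse may also share the day of the sort, which the labels do not give.

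**Figure D4:**
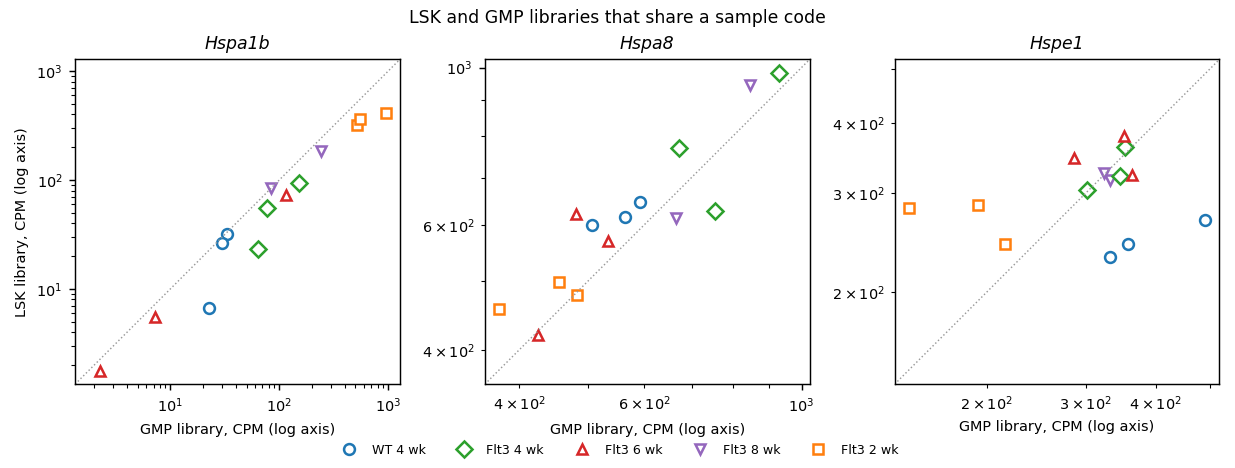
LSK against GMP level (CPM, log axes) of Hspa1b, Hspa8 and Hspe1 in the 14 pairs of libraries with 1 sample code; symbols mark the genotype and time and the dotted line is equality. Hspa1b pairs run from 1.75 to 945 CPM, most of them below the line with GMP above LSK. For Hspe1 the 3 WT pairs lie below the line and the 3 pairs at 2 weeks above it.

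Averaged over the Flt3 time points, LSK and GMP did not differ by the test for any of 9 members, where 17.8% of 10287 genes were called (9.02% higher, 8.79% lower); no member had an unadjusted p under 0.05, and DESeq2 called none. Log2 folds ran from -0.77 ± 0.47 for Hspa1b to 0.46 ± 0.28 for Hsp90aa1. With a block on the shared sample code, Hspa1a (-0.73, adjusted p = 3.06e-06) and Hspa1b (-0.70, 2.04e-07) were called lower in LSK. Under library totals Hsp90ab1 (0.23, adjusted p = 0.00853) and Hspd1 (0.24, 0.0256) were called higher instead, and the percentage of called genes that were higher went from 50.7% to 69.1%.

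Across the 29 deeper libraries of the first table, the genes whose log2 CPM followed each member most closely were ranked among 7666 genes, as a description. For Hspa1a they were Hspa1b (Pearson r = 0.963), Anxa2 (0.841) and Rgs2 (0.822). For Hspd1 they were Ptges3 (0.94), Hspa9 (0.919) and Mybbp1a (0.918), for Hspe1 Snrpd3 (0.932), Timm13 (0.916) and Mif (0.902), and for Hsp90ab1 Sfpq (0.92), Npm1 (0.902) and Lig1 (0.888). These points share genotype, time, depth and the standing of the 2-week libraries.

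Npm1 Flt3 and Dnmt3a Flt3 cells were compared within each cell type, as combinations that share the Flt3 mutation. Their libraries carry different series of sample codes, so genotype and series cannot be told apart here either. Hsph1 and Hspd1 were lower in Npm1 Flt3 cells of both types, and Hspa8 in GMP. Hsph1 stood at 43.1, 61.1, 58.0 and 83.7 CPM in Npm1 Flt3 GMP and at 149 and 150 CPM in Dnmt3a Flt3 GMP. In LSK it stood at 51.7, 78.9, 91.4 and 55.6 CPM and at 155 and 196 CPM. The log2 folds were -1.33 ± 0.24 in GMP (edgeR adjusted p = 0.00866) and -1.29 ± 0.31 in LSK (0.0255), and groups did not overlap. Hspd1 stood at 347, 378, 492 and 399 CPM against 802 and 663 CPM in GMP, and at 385, 593, 413 and 407 CPM against 963 and 900 CPM in LSK. Its log2 folds were -0.90 ± 0.17 (edgeR adjusted p = 0.01) and -1.01 ± 0.25 (0.0267). Hspa8 stood at 1797 to 2052 CPM against 2803 and 2809 CPM in GMP, a log2 fold of -0.57 ± 0.13 (edgeR adjusted p = 0.0206), and had -0.45 ± 0.28 in LSK. The counts were 3 of 10 members in GMP, all lower, where 20.8% of 17200 genes were called (12.5% higher, 8.22% lower). In LSK they were 2 of 9, both lower, where 11.6% of 19470 genes were called (7.8% higher, 3.76% lower).

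Hspa1a and Hspa1b passed in neither cell type in the main fits. In LSK, DESeq2 and the filter at a mean CPM of at least 5 each called 1 member higher, not named here, beside the 2 lower. Hspa1a stood at 73.9, 78.1, 71.2 and 85.1 CPM in Npm1 Flt3 GMP, and the 2 Dnmt3a Flt3 GMP libraries were at 25.4 and 111 CPM, on either side. In LSK Hspa1a stood at 46.4, 28.8, 109 and 11.1 CPM against 11.4 and 10.8 CPM, a log2 fold of 2.20 ± 0.77 (edgeR adjusted p = 0.0958). Dnmt3a Flt3 LSK replicate 1 and GMP replicate 2 stand outside these values, since title and sample code name different cell types. By their titles they add 98.2 CPM of Hspa1a in LSK and 33.3 CPM in GMP, and with them the log2 fold in LSK was 0.29 (adjusted p = 0.871). The 5 calls above held with them. By title, however, each shares its code, apart from the cell letter, with another library of its group. Where a code is read as 1 mouse, such libraries are not separate animals. The myeloid gene Mpo followed the titles, at 2608 CPM in the LSK-titled library (2511 and 3212 CPM in the other LSK) and 41327 CPM in the GMP-titled one (50235 and 52205 CPM in the other GMP).

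These calls rest on 2 Dnmt3a Flt3 libraries a cell type, and all 5 were lost without either of the 2 in that cell type; Hsph1 in LSK was also lost without Npm1 Flt3 LSK replicate 2. Beside them, immediate early genes were higher in Npm1 Flt3 cells in 17 of 18 in both types, with sums of 3580 to 5957 CPM in GMP and 1498 to 3504 CPM in LSK. Over all Dnmt3a Flt3 libraries the sums were 314 to 404 CPM in GMP and 411 to 1036 CPM in LSK. Dendritic markers were higher in 5 of 6 in GMP and 6 of 6 in LSK, with sums of 23921 to 49402 and 6966 to 30399 CPM against 85.1 to 150 and 687 to 1004 CPM. Neutrophil markers were higher in 5 and 4 of 6. Their part was not tested. Fkbp5 (3.31 ± 0.40 in GMP), Hspa4 (1.93 ± 0.30), a cytosolic HSP110, and Bag1 (1.84 ± 0.43), an HSP70 exchange factor, rose in GMP and also in LSK (2.97 ± 0.45, 2.06 ± 0.34 and 3.01 ± 0.51). Of 15 heat-induced partners 6 fell in GMP and 1 rose, and 2 fell in LSK, Chordc1 in both (-1.08 ± 0.18 and -0.96 ± 0.24). Hspa9 fell by 0.94 ± 0.21 in GMP and by 1.00 ± 0.26 in LSK.

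Npm1 Flt3 LSK and GMP differed in no member of 10 by the test, where 4.62% of 21227 genes were called (2.35% higher, 2.27% lower); no member had an unadjusted p under 0.05, and DESeq2 called none. Hspe1, at 170, 133, 123 and 280 CPM in LSK and 88.4, 63.1, 148 and 119 CPM in GMP, had 0.62 ± 0.30. With a block on the shared sample code it was 0.86 and passed (adjusted p = 0.045). Under library totals the percentage of called genes that were higher went from 50.9% to 73.3%.

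TAM was set against vehicle in Npm1 Flt3 Lin- HSPCs as a comparison of 7 days of treatment, given per the labels to delete the mutant Flt3. Hspa8, both HSP90 genes and both mitochondrial chaperones were lower with TAM, while Hspa1a and Hspa1b were higher or not called, depending on the scaling. The targeted gene Flt3 stood at 121, 183 and 83.3 CPM with TAM and at 209, 181 and 160 CPM with vehicle, and the groups overlapped; gene counts do not tell its alleles apart, so this checks no label. Hsp90aa1 stood at 266, 138 and 235 CPM with TAM against 624, 698 and 648 CPM with vehicle, and Hsp90ab1 at 1214, 855 and 1093 CPM against 2753, 2605 and 2508 CPM. Hspd1 stood at 386, 210 and 302 CPM against 732, 1066 and 924 CPM, and Hspe1 at 103 CPM or less against 121, 148 and 165 CPM. Hspa8 stood at 1938, 1241 and 1748 CPM against 2142, 2859 and 2575 CPM. For these genes the TAM and vehicle libraries did not overlap, which restates the calls given below and adds nothing to them. The share of all genes without overlap was not counted. Dnajb1 was closer, at 91.3, 95.9 and 87.8 CPM against 111, 112 and 98.0 CPM, and Hsph1 overlapped, at 54.9, 38.4 and 65.1 CPM against 55.0, 76.3 and 65.8 CPM.

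The size of these falls depends on the scaling. With TMM scaling the log2 folds were -2.90 ± 0.39 for Hsp90aa1 (edgeR adjusted p = 2.08e-06), -2.91 ± 0.41 for Hspd1 (2.97e-06) and -2.55 ± 0.38 for Hsp90ab1 (6.14e-06). They were -2.33 ± 0.39 for Hspe1 (2.97e-05), -1.91 ± 0.38 for Hspa8 (0.000241), -1.61 ± 0.38 for Hsph1 (0.00155) and -1.45 ± 0.37 for Dnajb1 (0.00275). With library totals alone the first 5 were -1.62, -1.60, -1.31, -1.04 and -0.62 and still passed, while Hsph1 (-0.31, adjusted p = 0.255) and Dnajb1 (-0.22, 0.233) did not. Hspa1a and Hspa1b, at 0.74 ± 0.53 and 0.80 ± 0.51 with TMM (adjusted p = 0.259 and 0.204), were then called higher (1.93, adjusted p = 0.0288, and 2.06, 0.0231). The median of all genes was 0.56 with TMM, 0.30 with median-ratio size factors, 0.03 for genes of at least 5 CPM and 1.64 with library totals, and the 7 members called lower with TMM lay below it under each. Of called genes 32.1% were higher with TMM and 81.5% with library totals. The count was 7 of 10 members lower, where 31.4% of 25269 genes were called (10.1% higher, 21.3% lower), and it was 7 in each of the 6 fits without 1 library.

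**Figure D5:**
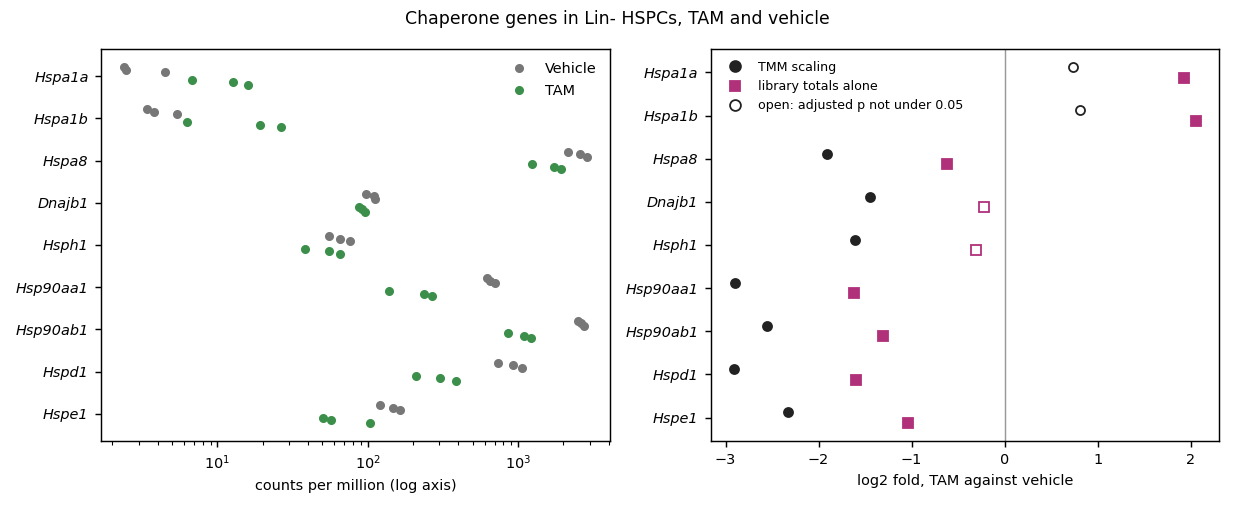
Left, CPM (log axis) of 9 members in each TAM (green) and vehicle (grey) library; right, the log2 fold of TAM against vehicle with TMM scaling (circles) and with library totals alone (squares), open where the adjusted p was not under 0.05. Hsp90aa1, Hsp90ab1, Hspd1, Hspe1 and Hspa8 pass under both scalings, Hsph1 and Dnajb1 with TMM and Hspa1a and Hspa1b with library totals.

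Hspa1a stood at 16.0, 6.77 and 12.8 CPM with TAM against 4.51, 2.41 and 2.45 CPM with vehicle, without overlap. Hspb1 was near the limit of counting throughout the series. In the first table it had 10 reads over 30 libraries, a pooled 0.207 CPM, and the groups with none allow between 0.479 CPM (WT LSK) and 1.30 CPM (8-week Flt3 GMP), a limit of 3 reads that covers counting error only. In the second table it had 187 reads, of which 76 came from the TAM libraries. These held 2.39, 0.672 and 1.15 CPM against 0.525, 0.0483 and 0.0979 CPM with vehicle (log2 fold 1.65 ± 0.92, adjusted p = 0.155).

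Other chaperone genes were also lower with TAM. The chaperonin and prefoldin list fell in 12 of 13, with Cct6a at -2.98 ± 0.39 and Tcp1 at -2.89 ± 0.39, both parts of the cytosolic folding ring. The mitochondrial list fell in 9 of 9 (Hspa9 -2.90 ± 0.39, Trap1 -2.59 ± 0.38), and the endoplasmic reticulum list in 12 of 16 (Pdia6 -2.88 ± 0.38). With library totals alone these counts were 10 of 13, 6 of 9 and 9 of 16. Of 15 heat-induced partners 9 fell and 2 rose, and 4 and 3 did with library totals. Marker lists moved too, and their part was not tested. GMP markers fell in 5 of 7 tested, with sums of 1155 to 1992 CPM against 5823 to 7197 CPM. Neutrophil markers rose in 6 of 6 (1640 to 2157 against 45.6 to 89.1 CPM), erythroid in 5 of 5 (534 to 705 against 1.10 to 7.52 CPM), dendritic in 6 of 6 (27566 to 35407 against 2408 to 4929 CPM) and macrophage in 6 of 7 (624 to 1148 against 37.4 to 56.2 CPM). No marker of these lists was at 0 in all libraries of either group.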

How the data were processed

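RNA of sorted cells was sequenced in 50 libraries. The authors deposited raw counts per gene in 2 tables. Per the submitters' processing notes, STAR, featureCounts and mm10 were used; versions and strand settings are not given in the sources used here. Per the labels' protocols, libraries came from a paired-end kit or from a 3' end single-end kit, and which sample had which is not given, so tables were never compared. Counts were used as deposited. Every column matched 1 sample.

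Tests used edgeR 4.0.16 (filterByExpr, TMM, robust quasi-likelihood F test) in R 4.3.3, with Benjamini-Hochberg adjustment across every gene of a fit, called at 0.05. The tool was tested on simulated data. The standard error is the log2 fold divided by the square root of F. CPM use library totals. Groups follow the titles. Flt3 8-week GMP replicate 2 (1942 counts) stayed in the fits, and 2 Dnmt3a Flt3 libraries with conflicting labels were left out of them. No 2 libraries of a group were copies: over 54 pairs chi-square divided by its degrees of freedom was 2.26 or more. At 306571 to 8249135 counts a library of the first table, low genes rest on few reads.

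Sample codes pair LSK with GMP libraries, which is taken as the same animal (residual correlation -0.093 to 0.271 over 14 pairs of the first table and 0.109 to 0.4 over 3 of the second). Such blocked values stand beside results they change.

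The members, the companion and marker lists and the comparisons were chosen with earlier results of these data known. Named genes are the 10 members, up to 4 called genes of lowest p per companion list and comparison, the 3 genes most like each of 4 members, and Flt3; some of these are not reported here. The marker counts are those of lists for LSK, GMP, macrophage, basophil and mast, neutrophil, dendritic, erythroid, B and plasma, and T cells. Alternatives were DESeq2 1.42.0, median-ratio factors, library totals alone, no filter on low counts, mean CPM of at least 5, the replicate block, the contrasted groups alone, leaving out the 2-week libraries, adding the conflicting libraries, and leaving out each library. Correlations were computed in Python 3.11.15 with log2 of CPM plus 1. Promoters are from the RefSeq table of GRCm38.p6, 250 bases before the start.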

Additional observations from a re-analysis of the deposited data

Results flagged for a closer look

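Hspd1 stood at 593 CPM in Npm1 Flt3 LSK replicate 2, and the other 3 libraries of that group at 385, 413 and 407 CPM. The gap to the nearest library is 0.865 of the range of the group, above Dixon's critical value for 4 samples. It was 1 of 20 combinations of member and group tested, and chance gives about 1 in 20. The Hspd1 call in LSK held without that library.

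The Flt3 effect on Hspe1 differed between LSK and GMP by 1.06 ± 0.18 on the log2 scale (edgeR adjusted p = 4.92e-05), with a positive effect in LSK and a negative one in GMP.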

How the results depend on the processing

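Of 138 values of members over the comparisons 37 were called. Of 637 recomputations of called values 65 lost the call and 0 turned direction, and of 1973 of values not called 58 gained it. The cause was not tested. Scaling by library totals alone and DESeq2 with the near-empty library were chosen after seeing the data. The depth of the first table left Hspb1 untested in the main fit of each of its comparisons, and Hspa1a and Hspa1b libraries differ widely within groups of 3. Without the filter on low counts all 10 members were tested. At 2 weeks in LSK, where Hspb1 had 5 reads, 3 members were then called higher in place of 2.

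Counts of called members moved as follows. For Flt3 against WT in GMP the count of 4 became 2 in DESeq2 with every library. In LSK the count of 2 became 1 with the replicate block and 1 with library totals. At 4 weeks in GMP the count of 1 became 2 with median-ratio factors, 3 with only the contrasted groups and 3 with library totals. The slope in GMP went from 0 to 2 in DESeq2 with or without the near-empty library, 2 with median-ratio factors, 1 without the filter on low counts and 3 with library totals. In LSK it went from 1 to 2 in DESeq2, 2 without the filter, 2 with library totals, and 0 with the replicate block or without the 2-week libraries. The 2-week count in GMP of 6 became 2 in DESeq2 with every library. Flt3 LSK against GMP went from 0 to 2 with the replicate block on the shared code and 2 with library totals, and the difference in Flt3 effect from 1 to 2 with library totals. Npm1 Flt3 against Dnmt3a Flt3 went from 3 to 1 in GMP and from 2 to 4 in LSK with the replicate block, and Npm1 Flt3 LSK against GMP from 0 to 1 with the block on the code. Leaving out 1 library gave 1 to 2 members for WT LSK against GMP. It gave 1 to 5 and 1 to 3 for Flt3 against WT in GMP and LSK, and 1 and 0 to 4 at 4 weeks. It gave 0 to 2 for each slope, 4 to 6 in GMP and 5 in LSK for 2 weeks, 0 to 2 for Flt3 LSK against GMP and 1 to 2 for the difference in effect. It gave 1 to 3 in GMP and 0 to 3 in LSK for Npm1 Flt3 against Dnmt3a Flt3, 0 to 2 for Npm1 Flt3 LSK against GMP, and 7 for TAM.

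Over all genes, these counts moved by more than 1.5 times. DESeq2 with every library called 912 against 2393 genes for Flt3 against WT in GMP, 366 against 1364 at 4 weeks, 987 against 2224 at 2 weeks and 649 against 1278 for the difference in effect. DESeq2 called 442 against 258 for the slope in LSK, 4634 against 2251 for Npm1 Flt3 against Dnmt3a Flt3 in LSK and 2188 against 980 for Npm1 Flt3 LSK against GMP. Without the filter the slopes had 1830 against 1075 in GMP and 653 in LSK, and without the 2-week libraries 52 and 1. Library totals gave 1806 for the slope in GMP, and 3803 in GMP and 2927 against 1693 in LSK at 2 weeks. The replicate block gave 120 for the slope in LSK, and 2127 against 3571 in GMP and 3465 in LSK for Npm1 Flt3 against Dnmt3a Flt3. With the conflicting libraries the latter had 5403 and 3597, with a mean CPM of at least 5 it had 3389 in LSK, and with only the contrasted groups Npm1 Flt3 LSK against GMP had 642. Leaving out 1 library gave as few as 1557 genes for Flt3 against WT in GMP and 659 for the difference in effect (WT GMP replicate 1), 770 at 4 weeks (Flt3 4-week GMP replicate 3) and 988 at 2 weeks in LSK (2-week LSK replicate 3). It gave 611 for the slope in GMP (2-week GMP replicate 3), and 59 (2-week LSK replicate 3) to 505 (4-week LSK replicate 2) in LSK. It gave 992 and 433 for Npm1 Flt3 against Dnmt3a Flt3 (Dnmt3a Flt3 replicate 3 of GMP and LSK), 637 for Npm1 Flt3 LSK against GMP (Npm1 Flt3 GMP replicate 2), and 5142 against 7926 for TAM (TAM replicate 1). Only the comparisons of LSK against GMP were blocked on the shared code. Within a cell type and for TAM the block uses title numbers that tie no samples together in the labels. The difference in Flt3 effect was blocked on title numbers too, and not on the code.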
